A study of Mus musculus with 2 samples.

Results

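Femur cells of the Ctsk-Cre reporter mouse that carried transcripts of Thy1 or Enpep were set against femur cells of the same animals in which no count of either gene was seen. The members were chosen by measured values. A well (1 sorted cell) was kept if it held at least 500 detected genes, at most 20% mitochondrial counts and a summed level of the cartilage genes Ucma, Matn3, Col9a1 and Lect1 under 4000 CPM (the gene's counts divided by the well's total, times 1e+06). Of 658 wells in the table, 5 failed the first limits, 180 were left out as cartilage wells, and 473 were kept. A kept well was called a Thy1 or Enpep well if either transcript reached 20 CPM, and a neither well if both had 0 counts. There were 82 Thy1 or Enpep wells, 41 on plate 47 and 41 on plate 48, and 368 neither wells, 185 on plate 47 and 183 on plate 48. The other 23 kept wells had a count of Thy1 or Enpep below 20 CPM and were in neither gate.

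All wells came from 2 littermate C57/B6 mice of genotype CTSK-cre+ mTMG at postnatal day 6, with 1 plate per animal, so animal and plate cannot be told apart. Here the promoter of Ctsk, the gene of the collagen-cleaving protease cathepsin K, drives Cre, and Cre turns on a membrane-bound green reporter for good. Sorted cells were therefore those in which this promoter was or had been active, and their progeny. No animal without the reporter was among the samples. Both gates share animals, age, genotype and sort. The label of the wells holds by construction, since Thy1 and Enpep drew the gate, and says nothing of the surface proteins.

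Thy1, also called CD90, is a glycosyl-phosphatidylinositol-anchored surface protein of fibroblasts, perivascular cells, T lymphocytes and neurons that binds integrins. Enpep is glutamyl aminopeptidase, a membrane enzyme that trims the amino end of angiotensin II and is known on pericytes, kidney tubule and early B-lineage cells, where it carries the antigens 6C3 and BP-1. In mouse skeletal stem cell sorting both antigens are used for exclusion: stem cells and early progenitors are sought among cells that carry Cd200 or integrin alpha V but neither Thy1 nor 6C3, and endoglin (Eng) splits them further.

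Thy1 accounted for most of the gate. Thy1 (ENSMUSG00000032011.5, chromosome 9, 44043384 to 44048579, plus strand, GRCm38, the assembly of mm10) reached 20 CPM in 35 of 239 kept wells on plate 47 (14.6%, 95% exact binomial interval 10.4% to 19.8%) and in 37 of 234 on plate 48 (15.8%, 11.4% to 21.1%). Enpep (ENSMUSG00000028024.14, chromosome 3, 129269175 to 129332720, minus strand) reached it in 8 of 239 wells on plate 47 (3.35%, 1.46% to 6.49%) and in 6 of 234 on plate 48 (2.56%, 0.947% to 5.50%). Either gene did so in 17.2% of wells on plate 47 (12.6% to 22.5%) and in 17.5% on plate 48 (12.9% to 23.0%). The shares of the 2 animals lay well inside each other's intervals. These intervals cover counting error only. Over the 4 quadrants of each plate the share ran between 10.96% and 24.5% on plate 47 and between 11.5% and 26.3% on plate 48.

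Few wells reached 20 CPM of both transcripts. Of the 82 wells, 68 reached 20 CPM of Thy1 only (33 on plate 47 and 35 on plate 48), 10 of Enpep only (6 and 4), and 4 of both (2 and 2). One of the Enpep-only wells of plate 48 also held 6.67 CPM of Thy1. Enpep reached 20 CPM in 4 of 72 Thy1 wells (5.56%, interval 1.53% to 13.6%) and in 10 of 401 wells under the Thy1 gate (2.49%, 1.20% to 4.54%). These intervals overlap. Among Thy1 wells, Thy1 lay between 20.5 and 1408 CPM, with a median of 192 CPM (182 on plate 47 and 197 on plate 48), and counts ran from 1 to 221. Among Enpep wells, Enpep lay between 95.9 and 984 CPM, with a median of 216 CPM and counts of 7 to 64. So no Enpep well stood near the threshold, whereas the wells closest to it on the inside, at 20.5, 20.7 and 20.9 CPM, were Thy1 wells. Just outside it, the highest values were 16.8, 18.3 and 19.0 CPM, and of the 23 wells below the threshold 17 had 1 count. For the cartilage limit, wells with sums of 3859 and 3983 CPM were kept and wells with 4041 and 4050 CPM were left out.

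The cartilage wells give a level of both transcripts in another cell type. Of the 180 wells left out, Thy1 reached 20 CPM in 3 (1.67%, interval 0.345% to 4.79%), Enpep in 3 (1.67%, the same interval) and either gene in 6 (3.33%, 1.23% to 7.11%), at a median of 114503 counts per well. In the kept wells the same 3 shares were 15.2% (12.1% to 18.8%), 2.96% (1.63% to 4.92%) and 17.3% (14.03% to 21.1%), at a median of 103765 counts. Over both plates the intervals for Thy1 did not overlap, while those for Enpep, with 3 cartilage wells, did. All intervals in this paragraph cover counting error over wells only and hold no spread between animals. By plate, Thy1 reached 20 CPM in 3 of 79 cartilage wells on plate 47 (3.80%, 0.790% to 10.7%), where the interval just overlapped that of the kept wells, and in 0 of 101 on plate 48 (exact interval up to 3.59%), where it did not.

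**Figure D1:**
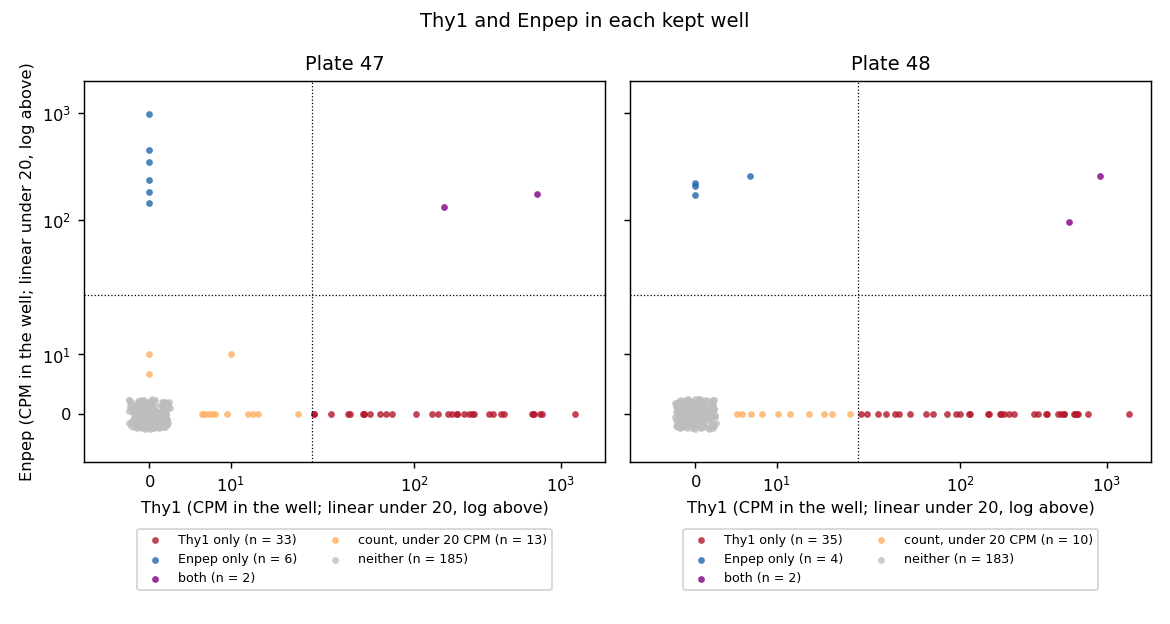
Each point is 1 kept well, placed by its Thy1 level (x axis) and Enpep level (y axis) in CPM, with plate 47 on the left and plate 48 on the right. Both axes are linear below 20 CPM and logarithmic above, dotted lines mark the gate of 20 CPM, and neither wells, all at 0, are scattered around the origin to be visible. Thy1 wells spread along the whole axis down to the gate, Enpep wells start at 95.9 CPM, and 2 wells per plate carry both.

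Thy1 or Enpep wells were deeper than neither wells. Their median was 119981 counts and 2422 genes on plate 47 and 143492 counts and 2602 genes on plate 48, against 92109 counts and 2141 genes, and 101600 counts and 2054 genes, in neither wells. The median mitochondrial share was 2.98% and 2.57% in Thy1 or Enpep wells, against 3.69% and 3.72% in neither wells. Depth thus moves with the gate. Shares of wells are therefore also given after every well was thinned to 50000 counts.

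Markers of T lymphocytes and leukocytes were at or near 0 in the gate, while some glial and neuronal genes were not. Of 6 T lymphocyte genes in the table (Cd3d, Cd3g, Lck, Cd2, Cd5 and Cd8a), 5 had no count in the Thy1 or Enpep wells of plate 47, where Cd2 gave 10.01 CPM, and all 6 had none on plate 48, while their summed level in neither wells was 0.215 and 0.0469 CPM. The B-lineage genes Cd79a, Vpreb1, Rag1 and Pax5 had no count in the gate on either plate, and Cd24a, which many cell types express, gave 38.7 and 25.4 CPM in the gate and 137 and 129 CPM in neither wells. The leukocyte gene Ptprc had no count in either gate. The summed level of 11 blood and myeloid genes was 19.3 and 4.404 CPM in the gate, against 39.0 and 25.4 CPM in neither wells. The endothelial genes Pecam1, Kdr, Emcn, Cldn5 and Tie1 had no count in the gate. The sum of all 8 endothelial genes was 94.6 and 22.0 CPM in the gate, against 25.5 and 13.0 CPM in neither wells, most of it from Esam, which pericytes also express. Of the neuronal and glial genes, Snap25 had no count in the gate. S100b, which cartilage cells also express, was at 58.0 and 39.8 CPM in the gate, against 70.9 and 95.03 CPM in neither wells, and Gap43 at 46.8 and 128 CPM, against 18.8 and 2.91 CPM in neither wells. The whole list of 9 such genes, of which 3 had a count in the gate on plate 47 and 5 on plate 48, summed to 105 and 169 CPM, against 96.9 and 103 CPM in neither wells, and its part in the results was not tested. The sum of 6 osteoclast genes was 29.1 and 29.8 CPM in the gate, against 81.3 and 107 CPM in neither wells.

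To ask what else differs between the gates, counts were summed per gate and plate, and the 4 sums were compared with edgeR's quasi-likelihood test with the plate as a block. In such sums, fewer cells carrying a transcript and less RNA per cell cannot be told apart. Thy1 or Enpep wells held more transcripts of a fibroblast programme, led by Mfap5, Cd34, Ly6a and Tppp3, and fewer transcripts of bone formation, led by Spp1, in both animals. With 2 animals and 1 residual degree of freedom, none of 13333 genes reached an adjusted p of 0.05 in either direction (0% called, edgeR). At an unadjusted p of 0.05, 1219 genes passed (9.14%). DESeq2 on the same sums called 281 genes (2.11%), 140 higher (1.05%) and 141 lower (1.06%), and limma called 0. For size alone, 501 genes (3.76%) were at least 2-fold higher in both plates and 1239 (9.29%) at least 2-fold lower, with a median log2 fold change of -0.19 over all genes tested. The genes given next had the smallest p in their direction or belong to the gene lists. None of them passed the edgeR threshold.

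Matrix, surface and cytoskeleton genes led the higher side. Mfap5, a microfibril component made by fibroblasts, was at 2859 and 4946 CPM on plates 47 and 48 in Thy1 or Enpep wells, against 756 and 1032 CPM in neither wells, with a log2 fold change of 2.01 ± 0.13 (SE). Cd34, a sialomucin of fibroblast, vessel and blood progenitors, was at 515 and 753 CPM, against 120 and 179 CPM in neither wells (2.01 ± 0.14). Tppp3, a tubulin polymerisation protein found in tendon sheath progenitors, was at 1729 and 2204 CPM, against 502 and 684 CPM in neither wells (1.65 ± 0.10). For each of these 3 genes both values in the gate exceeded both values in neither wells. Igfbp6, a binding protein that prefers Igf2, was at 893 and 1427 CPM, against 317 and 446 CPM in neither wells (1.51 ± 0.12). Anxa1, a calcium-dependent membrane-binding annexin, was at 1166 and 1355 CPM, against 470 and 523 CPM in neither wells (1.26 ± 0.11). The edgeR adjusted p was 0.372 for all 5.

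The lower side was led by bone and cartilage matrix. Spp1 (osteopontin), an acidic bone matrix protein, was at 113 and 103 CPM in Thy1 or Enpep wells, against 1678 and 1262 CPM in neither wells (log2 fold change -3.83 ± 0.15, edgeR adjusted p = 0.325). Chad (chondroadherin), a collagen-binding protein of cartilage and tendon, was at 215 and 228 CPM, against 762 and 948 CPM in neither wells (-2.02 ± 0.14). The chains of type I collagen differed less: Col1a1 was at 6732 and 3912 CPM, against 10975 and 6930 CPM in neither wells (-0.85 ± 0.07), and Col1a2 at 9011 and 5698 CPM, against 14819 and 10288 CPM in neither wells (-0.87 ± 0.07). For Col1a1 the gates did not overlap, although the plate 47 value in the gate lay close to the plate 48 value of neither wells. Car3, a carbonic anhydrase, was almost absent from the gate, at 0.378 and 0.169 CPM, against 97.7 and 129 CPM in neither wells, and in neither wells its counts came from 16 wells on plate 47 and 11 on plate 48. The edgeR adjusted p was 0.372 for these 4 genes.

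**Figure D2:**
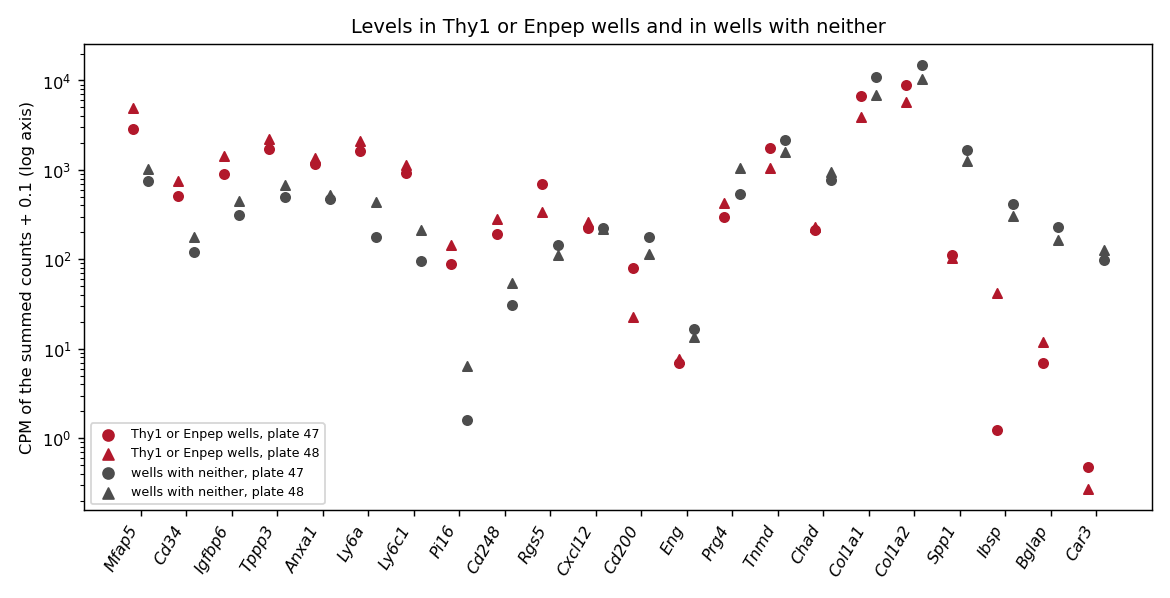
Levels of 22 genes in the summed counts of each gate and plate, in CPM plus 0.1 on a log axis, with Thy1 or Enpep wells in red on the left of each gene and neither wells in grey on the right. Circles are plate 47 and triangles plate 48, with 1 sum each and no error bar. Red points stand above grey points from Mfap5 to Rgs5, overlap them at Cxcl12, and stand below them from Spp1 to Car3.

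Most genes of the fibroblast marker list were higher in the gate. Of 13 genes in that list, 10 were at least 2-fold higher in both plates and 0 lower, against 3.76% and 9.29% of all genes, and the median log2 fold change was 2.07, against -0.19 for all genes. DESeq2 called 9 of the 13 higher. Pi16, a peptidase inhibitor of adventitial and fascial fibroblasts, was at 89.7 and 143 CPM in Thy1 or Enpep wells, against 1.502 and 6.29 CPM in neither wells (log2 fold change 5.08 ± 0.55, edgeR adjusted p = 0.372). Ly6a (Sca-1), a surface antigen of fibroblastic and blood progenitors, was at 1615 and 2092 CPM, against 180 and 443 CPM in neither wells (2.62 ± 0.28), and its relative Ly6c1 at 921 and 1123 CPM, against 94.9 and 213 CPM in neither wells (2.76 ± 0.27). Fbn1 (fibrillin-1), the microfibril backbone, was at 936 and 1087 CPM, against 232 and 175 CPM in neither wells (2.24 ± 0.21). The 3 members under a 2-fold difference were Gsn, Pcolce2 and Col14a1, the collagen XIV chain, which was at 438 and 317 CPM in the gate and 457 and 438 CPM in neither wells.

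Mural-cell genes were higher as well in the combined gate, on fewer cells. Of 12 pericyte and smooth muscle genes, 5 were at least 2-fold higher in both plates and 0 lower, against 3.76% and 9.29% of all genes. The median was 1.09, and DESeq2 called 3 higher. In Thy1-only wells 2 of the 12 were higher, Myh11 and Vtn, and 1 lower, Cox4i2, and DESeq2 called 0. Rgs5, a G-protein signalling regulator that marks pericytes, was at 695 and 342 CPM in Thy1 or Enpep wells, against 143 and 113 CPM in neither wells (1.86 ± 0.23, edgeR adjusted p = 0.521). One well of plate 48, with 7373 CPM of Rgs5, held 16.97% of the Rgs5 counts of both gates and most of those in the gate on that plate. Rgs5 reached 20 CPM in 8 and 4 of 41 Thy1 or Enpep wells (19.5% and 9.76%), against 16 and 12 neither wells (8.65% and 6.56%). Mcam (CD146), a surface adhesion protein of mural cells, was at 63.4 and 19.0 CPM, against 4.67 and 4.36 CPM in neither wells. Acta2, smooth muscle actin, was at 683 and 458 CPM, against 377 and 204 CPM in neither wells, which is higher within each animal but short of 2-fold on plate 47. Among 8 adipogenic stromal genes, Lpl and Fabp4 were at least 2-fold higher in both plates and Lepr was lower, and 1 well held 42.0% of the Fabp4 counts.

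Markers of bone-forming cells went the other way. Of 12 genes, 11 were at least 2-fold lower in both plates and 0 higher, with a median log2 fold change of -3.50, and DESeq2 called 7 of them lower. Ibsp (bone sialoprotein) was at 1.13 and 42.3 CPM in Thy1 or Enpep wells, against 415 and 309 CPM in neither wells. Ifitm5, a bone-restricted membrane protein, was at 1.51 CPM on plate 47 and had no count on plate 48 in the gate, against 227 and 67.6 CPM in neither wells. In the summed counts of plate 48 it was at least 133-fold lower in the gate, taking 3 counts over the summed wells as the limit. This limit covers counts only and not the number of wells that carried the gene. Omd (osteomodulin), a keratan sulphate proteoglycan of bone, was at 172 and 162 CPM, against 722 and 544 CPM in neither wells (-1.99 ± 0.16). Runx2, the transcription factor that starts osteoblast commitment, was at 26.6 and 15.6 CPM in the gate, against 63.4 and 47.9 CPM in neither wells, and Sp7 (osterix), which acts after it, at 38.1 and 11.9 CPM, against 77.9 and 30.3 CPM in neither wells. The exception was Alpl, the alkaline phosphatase of early osteoblast-lineage cells, at 103 and 80.1 CPM in the gate and 128 and 76.6 CPM in neither wells. Single wells weighed on some of these genes: 1 well held 62.3% of the Dmp1 counts, 46.99% of the Bglap2 counts and 31.6% of the Bglap counts.

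Cartilage genes that had not drawn the gate were also low in the combined gate. Of 9 such genes tested, 4 were at least 2-fold lower in both plates (Sox9, Hapln1, Col9a3 and Chad) and 0 higher, with a median of -1.66. With Ucma, Matn3, Col9a1 and Lect1 included, the cartilage list summed to 1862 and 983 CPM in the gate, against 3578 and 5161 CPM in neither wells, so residual cartilage transcripts below the limit of 4000 CPM move with the gate. The low level was that of Thy1 wells, at 580 and 189 CPM, while Enpep wells summed to 8341 and 4761 CPM. In the sums of Enpep wells, 0 of the 9 cartilage genes tested were 2-fold lower in both plates and 0 higher. At a limit of 1000 CPM, the log2 fold change was 1.75 for Mfap5 and -4.03 for Spp1. Tendon and articular genes showed smaller differences in the combined gate. Of 8 tendon and ligament genes 0 were higher and 1, Cilp2, was lower at 2-fold in both plates, with a median of -0.63. Tnmd (tenomodulin), a membrane protein of tendon cells, was at 1756 and 1046 CPM in the gate, against 2140 and 1589 CPM in neither wells. Of 6 articular and synovial genes 0 were higher and 1, Cilp, was lower. Prg4 (lubricin), the joint lubricant, was at 296 and 422 CPM, against 541 and 1042 CPM in neither wells. The articular list summed to 267 and 274 CPM in Thy1 wells and to 2185 and 2190 CPM in Enpep wells. In neither wells the sums were 862 and 1463 CPM.

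**Figure D3:**
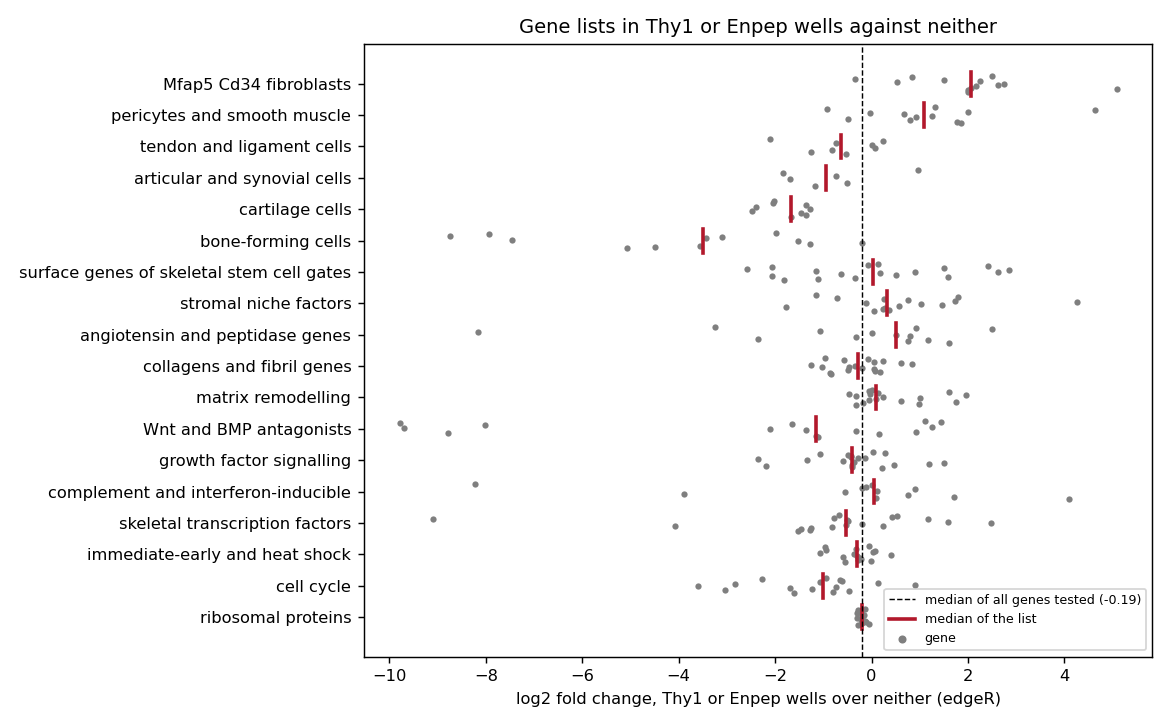
Log2 fold changes of Thy1 or Enpep wells over neither wells (x axis, edgeR) for the tested members of 18 gene lists (1 grey point per gene, genes of the gate left out), with the list median in red and the median of all genes tested, -0.19, as a dashed line. Points left of about -8 are mostly genes with no count in the gate, for which the fitted value is no measure of size. The fibroblast list is centred at 2.07 and the bone-forming list at -3.50, and the ribosomal proteins lie together near the median of all genes.

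Since Thy1 and 6C3 are used as exclusion antigens, the other surface genes of skeletal stem cell gates were examined as a list. Of 18 tested, 4 were at least 2-fold higher in both plates (Ly6a, Mcam, Cd44 and Cd248) and 2 lower (Cd200 and Lepr), with a median of 0.02. Of all genes, 3.76% were higher and 9.29% lower, so the count of 2 lower genes is near that share. In Thy1-only wells 3 were higher (Ly6a, Cd44 and Cd248, without Mcam) and the same 2 lower. Cd200, an immunoglobulin-family surface glycoprotein used to include stem cells, was at 80.6 and 22.7 CPM in Thy1 or Enpep wells, against 178 and 114 CPM in neither wells (log2 fold change -1.81 ± 0.40, edgeR adjusted p = 0.541, DESeq2 adjusted p = 0.0194). Eng, a co-receptor of transforming growth factor beta used to separate more committed cells, was low in both gates, at 6.80 and 7.62 CPM against 16.5 and 13.3 CPM in neither wells (-1.12 ± 0.98, edgeR adjusted p = 0.919). Cd248 (endosialin), a surface protein of stromal cells, was at 190 and 281 CPM, against 31.1 and 54.3 CPM in neither wells (2.41 ± 0.21, edgeR adjusted p = 0.372). Cd44, the hyaluronan receptor, was at 396 and 348 CPM, against 126 and 122 CPM in neither wells. Itgav, the integrin alpha V chain of the inclusion gate, was at 124 and 71.1 CPM in Thy1 or Enpep wells and 113 and 114 CPM in neither wells, with no common direction over the animals. Pdgfra, a growth factor receptor of mesenchymal progenitors, was at 64.8 and 48.4 CPM in the gate and 108 and 62.8 CPM in neither wells.

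Counts for genes linked to the function of Enpep or Thy1 were near the shares of all genes, 3.76% higher and 9.29% lower. They therefore support no statement on these genes. Of 13 angiotensin and peptidase genes tested, 1 was at least 2-fold higher in both plates, Dpp4 (48.3 and 46.8 CPM in the gate against 8.15 and 7.79 CPM in neither wells), which is also in the fibroblast list, and 1 was lower, Mas1, with a median of 0.51. Mas1 had no count in the gate, and its counts in neither wells came from 1 well per plate. Of 9 integrin and membrane-anchor partners of Thy1, 0 were at least 2-fold higher and 0 lower, with a median of -0.35. In the sums of Enpep wells, 0 of the 13 angiotensin and peptidase genes were at least 2-fold higher in both plates and 5 lower. Of all genes, 3.75% were higher there and 29.6% lower. The list median was -2.67, against -1.48 for all genes, or -0.95 against -0.83 with genes at 0 set to their limit.

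Of 15 secreted antagonists of Wnt and bone morphogenetic protein signalling, 0 were at least 2-fold higher and 5 lower (Dkk1, Frzb, Grem1, Nog and Bmper), with a median of -1.15, and this median stayed the same with genes at 0 set to their limit. Grem1, Bmper, Nog and Dkk1 had no count in the gate. These 4 of the 5 lower genes entered the test through the neither wells, so the count of 5 supports no statement on the list. Bmper, a secreted modulator of bone morphogenetic proteins, was at 7.62 and 9.33 CPM in neither wells, from 7 wells on each plate. With so few carrying wells, the lack of a count in the gate does not show an absence. Nog (noggin) was at 1.93 and 3.002 CPM in neither wells. Wif1, an inhibitor that binds Wnt ligands, was at 375 and 369 CPM in the gate, against 722 and 1137 CPM in neither wells (-1.37 ± 0.21, edgeR adjusted p = 0.541), and Fstl1, a follistatin-like glycoprotein, at 3134 and 3739 CPM, against 1626 and 1375 CPM in neither wells (1.11 ± 0.16, edgeR adjusted p = 0.541).

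The counts of the next lists are to be read against 3.76% of all genes higher and 9.29% lower, and a count of 1 gene is close to those shares. Of 19 skeletal transcription factors, 2 were at least 2-fold higher, Osr1 and Osr2, and 5 lower, Runx2, Sp7, Sox9, Gli1 and Foxd1, with a median of -0.52. Osr1, an odd-skipped factor of irregular connective tissue, was at 66.5 and 127 CPM in Thy1 or Enpep wells, against 25.1 and 9.62 CPM in neither wells. Of 16 niche factors 2 were higher, Tnfrsf11b (osteoprotegerin, a decoy for the osteoclast factor Rankl) and Ebf1, and 0 lower. Cxcl12, the stromal chemokine that retains blood stem cells, was at 227 and 262 CPM in the gate and 224 and 220 CPM in neither wells, and Ptn (pleiotrophin) at 1291 and 1264 CPM, against 759 and 664 CPM in neither wells. Growth factor signalling genes had 1 of 19 higher, Igfbp6, and matrix remodelling genes 1 of 17, Adamts5, an aggrecan-cleaving protease at 145 and 139 CPM in the gate, against 40.4 and 29.9 CPM in neither wells. Among 18 collagens and fibril genes, and likewise among 16 immediate-early and heat shock genes and 16 ribosomal protein genes, 0 were 2-fold higher and 0 lower. Of 16 cell cycle genes, 1, Ccnb2, was lower. Ctsk itself was at 253 and 167 CPM in the gate, against 324 and 221 CPM in neither wells (-0.46 ± 0.16, edgeR adjusted p = 0.541).

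The share of wells carrying a transcript need not follow its summed level. A transcript was counted as carried at 20 CPM, which does not by itself name the type of cell. Col2a1 reached 20 CPM in 351 of 368 neither wells (95.4%) and in all 14 Enpep wells, although cartilage wells had been left out. Mfap5 reached 20 CPM in 22 of 41 and 30 of 41 Thy1 or Enpep wells (53.7% and 73.2%), against 64 of 185 and 69 of 183 neither wells (34.6% and 37.7%). Ly6a did so in 16 and 27 wells (39.0% and 65.9%), against 23 and 34 neither wells (12.4% and 18.6%). Pi16 did so in 5 and 11 wells (12.2% and 26.8%), against 3 and 4 neither wells (1.62% and 2.19%). Both fibroblast genes Ly6a and Pi16 were thus carried by a larger share of wells in the gate on each plate, and the 95% intervals of Ly6a did not overlap within either plate. Cd200 reached 20 CPM in 9 and 5 wells (22.0% and 12.2%), against 55 and 45 neither wells (29.7% and 24.6%), with overlapping intervals. Tnmd did so in 14 and 7 wells (34.1% and 17.1%), against 106 and 69 neither wells (57.3% and 37.7%). Car3 reached it in 0 of 41 wells on each plate, which by the limit of 3 counts allows a share of up to 7.32% (upper end of the exact interval 8.60%), against 9 and 4 neither wells (4.86% and 2.19%), so its absence was not detectable at this number of wells. For some genes the 2 measures differed in direction. Pdgfra, with lower sums in the gate, was carried by 31.7% and 29.3% of its wells, against 27.0% and 21.9% of neither wells. Ptn on plate 47, with a higher sum in the gate, was carried by 51.2% of its wells, against 54.1% of neither wells, and Sp7 on plate 48, with a lower sum, by 7.32%, against 3.83%. Cxcl12, whose summed level was alike, was carried by 15 and 14 wells of the gate (36.6% and 34.1%), against 39 and 27 neither wells (21.1% and 14.8%).

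Thinned to 50000 counts per well, the shares kept these directions, except for Pdgfra on plate 47. There a Pdgfra count was seen in 31.6% of Thy1 or Enpep wells, against 34.1% of neither wells. A Ly6a count was then seen in 18 of 38 and 27 of 39 Thy1 or Enpep wells (47.4% and 69.2%), against 31 of 164 and 44 of 174 neither wells (18.9% and 25.3%). A Mfap5 count was seen in 63.2% and 82.1% of those wells, against 46.3% and 51.7% of neither wells, and an Ibsp count in 2.63% and 5.13%, against 19.5% and 17.2% of neither wells. Wells shallower than 50000 counts were left out.

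**Figure D4:**
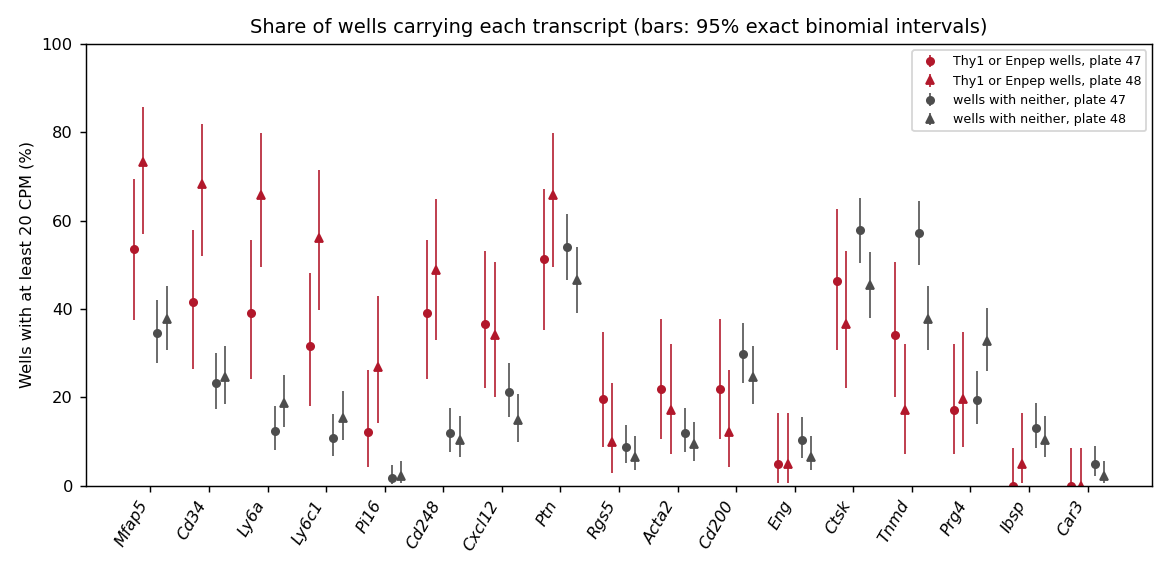
Share of wells (y axis, percent) in which each of 17 transcripts reached 20 CPM, with Thy1 or Enpep wells in red on the left of each gene and neither wells in grey on the right, circles for plate 47 and triangles for plate 48. Bars are 95% exact binomial intervals over wells and cover counting error only. Ly6a stands higher in the gate on both plates with separate intervals, and Tnmd and Ibsp stand lower.

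Read from the side of the markers, no population was made of Thy1 wells alone. Of 24 wells with at least 20 CPM of Pi16, 16 were Thy1 wells (66.7%, interval 44.7% to 84.4%), and of 80 wells with Cd248, 35 were (43.8%, 32.7% to 55.3%). The share was 42 of 109 wells with Ly6a (38.5%, 29.4% to 48.3%) and 53 of 212 wells with Mfap5 or Cd34 (25.0%, 19.3% to 31.4%). It was 11 of 42 wells with Rgs5 (26.2%, 13.9% to 42.0%). For some other markers it was lower, with 19 of 204 wells with Tnmd (9.31%, 5.70% to 14.2%), 12 of 115 with Prg4 (10.4%, 5.51% to 17.5%), 9 of 120 with Cd200 (7.50%, 3.49% to 13.8%) and 1 of 47 with Ibsp (2.13%, 0.0539% to 11.3%). Other bone markers gave 6 of 38 wells with Sp7 (15.8%, 6.02% to 31.3%) and 4 of 34 with Bglap (11.8%, 3.30% to 27.5%). Among all kept wells, 72 of 473 were Thy1 wells (15.2%). The intervals for Rgs5, Prg4, Sp7 and Bglap contain that share. Of 106 wells with at least 20 CPM of Cd200 and no Eng count, the combination sought in the stem cell gate, 88 were neither wells (83.02%, 74.5% to 89.6%) and 14 were Thy1 or Enpep wells (13.2%, 7.41% to 21.2%). The neither wells made up 368 of all 473 kept wells.

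To see how far the difference between the gates follows the share of fibroblast wells, the comparison was repeated within wells that carried at least 20 CPM of Mfap5 or Cd34. This left 23 and 31 Thy1 or Enpep wells, at medians of 132281 and 140426 counts, and 69 and 78 neither wells, at medians of 84365 and 92232 counts. The genes that drew this subset still differed within it. Mfap5 was at 4959 and 6538 CPM in Thy1 or Enpep wells, against 2159 and 2661 CPM in neither wells. Cd34 was at 893 and 995 CPM, against 343 and 460 CPM. The subset thus does not make fibroblast content equal and cannot separate it from the other differences. Ly6a was then at 2800 and 2720 CPM in Thy1 or Enpep wells, against 483 and 1106 CPM in neither wells, and the log2 fold change was 1.86 ± 0.35, compared with 2.62 over all kept wells. Pi16 was at 156 and 189 CPM, against 3.99 and 16.1 CPM in neither wells (4.32 ± 0.63), and Cd248 at 306 and 369 CPM, against 70.2 and 135 CPM in neither wells (1.73 ± 0.28). Each remained higher within both animals, with a smaller difference. Fbn1 differed by 1.83 ± 0.16 and Tppp3 by 1.20 ± 0.22. Spp1 remained lower, at 63.2 and 8.96 CPM against 211 and 302 CPM in neither wells, and so did the type I collagen chains: Col1a1 was at 4317 and 2440 CPM, against 9638 and 5549 CPM in neither wells (-1.23 ± 0.08). Tnmd was at 297 and 442 CPM, against 2204 and 1179 CPM in neither wells (-2.21 ± 0.44). Rgs5 showed no common direction, at 133 and 42.8 CPM in Thy1 or Enpep wells and 48.8 and 182 CPM in neither wells. No gene passed the edgeR threshold in this subset either, and the adjusted p of the genes named here was 0.687 or more.

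Thy1 wells were not uniform. Of the 72, 53 carried at least 20 CPM of Mfap5 or Cd34, and of these 40 carried Ly6a, 16 Pi16, 22 Cxcl12 and 5 Cd200. The other 19 carried neither Mfap5 nor Cd34 at that level. Of these 19, 10 carried Acta2, 9 Tnmd, 6 Prg4 and 5 Rgs5, 2 carried Ly6a and 0 carried Pi16. An abundant transcript at 20 CPM does not alone name the type of cell. Of the 19, 4 carried none of Tnmd, Rgs5, Acta2 and Prg4. Thy1 ranged between 20.7 and 1255 CPM in the 53 wells and between 20.5 and 1408 CPM in the 19. Its median was 197 CPM on plate 47 and 194 CPM on plate 48 in the 53 wells, and 164 CPM on plate 47 and 463 CPM on plate 48 in the 19, of which plate 48 held 7, so the medians differed in opposite directions on the 2 plates. Within Thy1 wells, the level of Thy1 was correlated with 8 marker transcripts, and the Spearman coefficients lay between -0.19 and 0.32. The Spearman coefficient with Ly6a was 0.28 over 35 wells on plate 47 and 0.01 over 37 on plate 48, with Mfap5 0.23 and -0.19, and with Cd200 0.08 and 0.32. With the total count of the well it was 0.26 and 0.14. All wells of a plate share its library and animal.

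Without the Enpep wells, the leading genes of Thy1 were largely of the same lists. The 33 and 35 Thy1-only wells were compared with the neither wells in a fit that also held the wells below the threshold (6 sums, 2 residual degrees of freedom). None of 12200 genes reached an adjusted p of 0.05 (0% called, edgeR), 284 passed unadjusted (2.33%), DESeq2 called 89 (0.73%), 50 higher (0.41%) and 39 lower (0.32%), and limma called 0. At least 2-fold in both plates, 462 genes were higher (3.79%) and 1280 lower (10.5%), with a median of -0.22. Ly6a was at 1819 and 2490 CPM in Thy1-only wells, against 180 and 443 CPM in neither wells (log2 fold change 2.85 ± 0.24), Mfap5 at 3171 and 5954 CPM, against 756 and 1032 CPM (2.24 ± 0.17), and Cd34 at 600 and 879 CPM, against 120 and 179 CPM (2.24 ± 0.21). Tppp3 (1.83 ± 0.12) and Anxa2, an annexin of the membrane cortex (1.36 ± 0.13), were the other leading genes. On the lower side, Fibin, a secreted protein of limb bud mesenchyme, was at 33.1 and 61.6 CPM, against 337 and 431 CPM in neither wells (-3.16 ± 0.33), and Sparc (osteonectin), a collagen-binding protein, at 7648 and 6608 CPM, against 11127 and 9584 CPM (-0.60 ± 0.05). Col1a1, Col1a2 and the mitochondrial ribosomal RNA mt-Rnr2 were lower by -0.91, -0.89 and -0.59. The edgeR adjusted p of these 10 genes lay between 0.307 and 0.416, and the comparison shares its neither wells with that of the combined gate.

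In the lists, Thy1-only wells had 10 of 13 fibroblast genes at least 2-fold higher and 0 lower (median 2.24), 9 of 12 bone-forming genes lower (median -3.97), and 7 of 9 cartilage genes lower (median -2.93). Of 6 articular genes 3 were lower, Prg4, Cilp and Gdf5, with a median of -3.29. Prg4 was at 53.4 and 226 CPM in Thy1-only wells, against 541 and 1042 CPM in neither wells. Rgs5 differed between the animals: it was at 670 CPM on plate 47 and 37.0 CPM on plate 48 in Thy1-only wells, against 143 and 113 CPM in neither wells, and of the 12 mural genes Myh11 and Vtn were at least 2-fold higher in both plates and Cox4i2 was lower. Of 16 cell cycle genes, 6 were at least 2-fold lower (Mki67, Top2a, Ccnb2, Cdk1, Ccna2 and Cenpf), with a median of -2.58. Both edgeR and DESeq2 called 0 of the 16 here. In the combined gate only 1 of the 16, Ccnb2, was at least 2-fold lower. The number of wells that carried these genes is not given here, and a difference in cycling was not tested.

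The 14 Enpep wells, 8 on plate 47 and 6 on plate 48, carried markers of several lists. Each is given here by its Enpep level and the marker transcripts it carried. On plate 47, the well with 133 CPM of Enpep carried 2031 CPM of Rgs5 and 996 CPM of Kcnj8, a potassium channel of pericytes, and the well with 146 CPM carried 11524 CPM of Rgs5 and 6835 CPM of Acta2. The well with 174 CPM carried 6435 CPM of Mfap5, 2875 CPM of Ly6a and 684 CPM of Thy1. These 3 carried mural or fibroblast markers. The wells with 183, 240 and 454 CPM of Enpep carried 6153, 11591 and 21270 CPM of Col2a1, the cartilage collagen, and the second of them 11411 CPM of Prg4. The well with 353 CPM carried 1376 CPM of Cxcl12 and little of the other markers, and the well with the most Enpep, 984 CPM, carried 16107 CPM of Tnmd and 5919 CPM of Postn, a matrix protein of tendon and periosteum.

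On plate 48 the wells were as mixed. The well with 95.9 CPM of Enpep carried 848 CPM of Cd34, 620 CPM of Mfap5 and 553 CPM of Thy1, and the well with 258 CPM carried 7373 CPM of Rgs5, 4255 CPM of Acta2 and 891 CPM of Thy1. The well with 170 CPM carried 8489 CPM of Ptn, 2135 CPM of Cxcl12 and 1283 CPM of Ly6a. The wells with 209 and 260 CPM of Enpep carried 6878 and 5422 CPM of Col2a1, the first with 4070 CPM of Tnmd and 1721 CPM of Ibsp, the second with 7103 CPM of Prg4 and 213 CPM of Eng. The last, with 224 CPM, carried 1270 CPM of Prg4 and 1497 CPM of Postn. All 14 Enpep wells stayed under the cartilage limit, with sums between 0 and 2469 CPM. One cell was sorted per well according to the labels, and no doublet search was run.

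**Figure D5:**
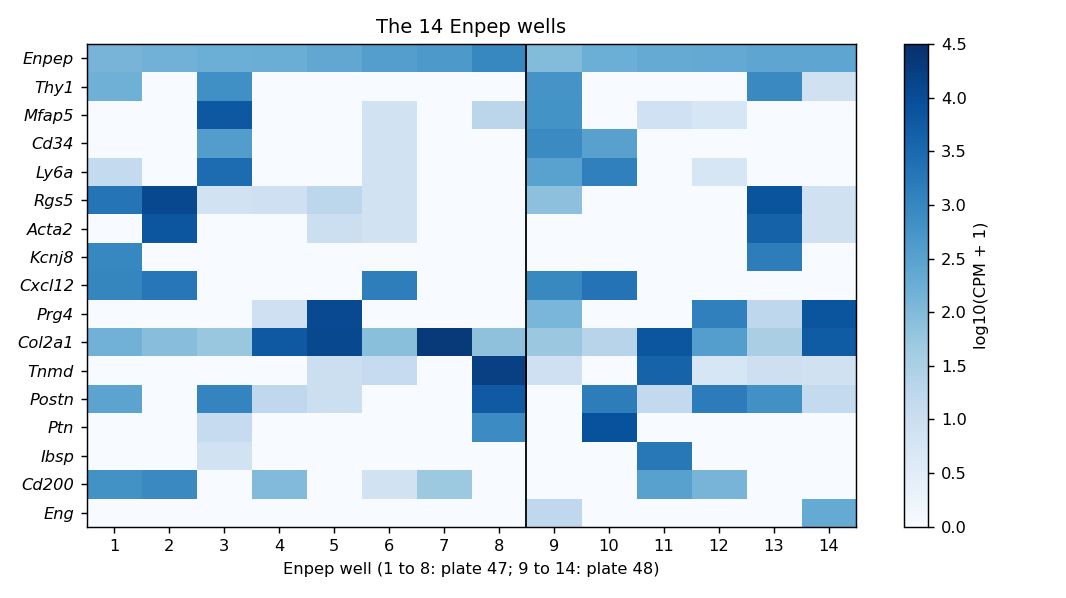
Levels of 17 transcripts (rows) in the 14 Enpep wells (columns, in order of Enpep within each plate, plate 47 left of the line), coloured by log10(CPM + 1). Rgs5 is dark in wells 1, 2 and 13, Prg4 in wells 5, 12 and 14, Col2a1 in wells 4, 5, 7, 11 and 14, Tnmd in wells 8 and 11, and Mfap5 in wells 3 and 9.

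Counted over both plates, Rgs5 reached 20 CPM in 4 of 14 Enpep wells (28.6%), against 28 of 368 neither wells (7.61%). Cd200 did so in 6 of 14 (42.9%), against 100 of 368 (27.2%), Cxcl12 in 5 of 14 (35.7%), against 66 of 368 (17.9%), and Prg4 in 4 of 14 (28.6%), against 96 of 368 (26.1%). Tnmd did so in 2 of 14 (14.3%), against 175 of 368 (47.6%), Ptn in 2 of 14 (14.3%), against 185 of 368 (50.3%), and Mfap5 in 2 of 14 (14.3%), against 133 of 368 (36.1%). With 14 wells, each share moves by 7.14 percentage points per well.

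In the sums of the Enpep wells, none of 12518 genes reached an adjusted p of 0.05 against neither wells (0% called, edgeR), 408 passed unadjusted (3.26%), and DESeq2 called 44 (0.351%), 8 higher (0.0639%) and 36 lower (0.288%), and limma called 2442. At least 2-fold in both plates, 469 genes were higher (3.75%) and 3711 lower (29.6%). The median of all genes was -1.48 on the log2 scale, and -0.83 with the 2749 genes at 0 in the gate set to their limit, in sums over 8 and 6 wells. With DESeq2's size factors the median was -1.24. The fold changes that follow are not corrected for that shift: Col1a2, at -0.97, lay above the median of all genes, and Dcn, at -1.61, close to it. Rgs5 was at 826 and 1814 CPM in Enpep wells, against 143 and 113 CPM in neither wells (2.92 ± 0.45), but without the well with most Rgs5 counts the fold change was -0.66. Ecm1, a secreted matrix glycoprotein, was at 370 and 378 CPM, against 73.1 and 116 CPM in neither wells (1.67 ± 0.52), and turned to -1.84 without its leading well. Mrps22, a mitochondrial ribosome protein, Hspb1, a small heat shock protein, and Slc20a1, a phosphate transporter, were the other leading genes on the higher side, at 2.71, 1.68 and 2.498. At lower levels than in neither wells were Dcn (decorin), a collagen-binding proteoglycan, at 1893 and 1047 CPM, against 3823 and 2960 CPM in neither wells (-1.61 ± 0.23), Spp1 at 445 and 506 CPM, against 1678 and 1262 CPM (-1.97 ± 0.29), and Mest, an imprinted gene of embryonic mesoderm, at 223 and 271 CPM, against 1150 and 917 CPM (-2.42 ± 0.33). Mfap4, a microfibril-associated glycoprotein, was at 2.32 CPM on plate 47 and had no count on plate 48, against 325 and 171 CPM in neither wells, and Col1a2 was at 9484 and 6838 CPM, against 14819 and 10288 CPM. The edgeR adjusted p was 0.565 for these 10 genes. Of 12 mural genes, 4 were at least 2-fold higher (Rgs5, Kcnj8, Des and Cox4i2) and 0 lower. This count rests on few cells, since Kcnj8 reached 20 CPM in 1 Enpep well per plate and Rgs5 in 2 per plate. Of 13 fibroblast genes 0 were higher and 2 lower, Pi16 and Clec3b, and of 12 bone-forming genes 7 were lower.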

How the data were processed

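Single GFP-positive femur cells of 2 mice were sorted into 2 plates, and cDNA was made per well, pooled, prepared with Nextera XT and sequenced, per the labels' protocols. The authors deposited 1 table of raw counts (24866 genes in 658 wells). Build mm10 and CASAVA are named in the submitters' processing notes. How reads were aligned and counted, and whether duplicates were collapsed, is not given in the sources used here, so no count is read as a molecule. Wells were assigned to plates by the plate name in the column header, and 95 well barcodes occur on both plates. Positions are those of GENCODE models (GRCm38) with the same symbol.

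CPM are counts over the total of the well, or of the summed wells. Summed depth was 5296803 and 5903757 counts for Thy1 or Enpep wells and 18642195 and 21318963 for neither wells. Sums were tested with edgeR 4.0.16 (R 4.3.3; TMM, filterByExpr, quasi-likelihood, Benjamini-Hochberg adjustment, threshold 0.05), with the plate as block because both gates come from the same animals. The 6 genes of the rule were left out of tests. The ± is the SE of the fit. DESeq2 1.42.0 and limma 3.58.1 (prior count 2) were alternatives, as were other gates, filters, scalings and depths. Fold counts per plate used CPM plus 1. The genes to name were the 5 smallest unadjusted p per direction with at least 20 CPM and no well over 25% of counts, plus list members. Members, lists and tests were chosen with earlier results of these data known. Figures were drawn with matplotlib 3.10.9. Some list members are not reported here.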

Additional observations from a re-analysis of the deposited data

How the results depend on the processing

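Planned comparisons of Enpep-only wells with neither wells and of Thy1-only with Enpep-only wells could not be fitted, since 6 and 4 Enpep-only wells fell under the minimum of 10 per plate, and all 14 Enpep wells were compared in their place. DESeq2 called 281 genes for the combined gate, 89 for Thy1-only wells and 44 for Enpep wells, where edgeR called 0 each time. For Enpep wells, calls also came without a filter on low counts (1), in wells thinned to 50000 counts (22), in wells with Mfap5 or Cd34, which hold 1 and 2 Enpep wells (10), and with limma (2442), an alternative chosen after seeing the data, as was a fit with all other wells as further gates. The other settings gave 0, including the fit with no replicate block. With 0 calls in both fits this says nothing of the pairing by animal; at an unadjusted p of 0.05 the fit without the block passed 1433 genes for the combined gate, 709 for Thy1-only wells and 3343 for Enpep wells, where the fit with it passed 1219, 284 and 408. Between the gates, the difference of plate 47 and plate 48 correlated at 0.0412 over 13333 genes. Leaving out a plate leaves 1 sum per gate and no test. The share of kept wells in the gate was 22.6% on plate 47 at any count and 12.8% on plate 48 with no cartilage limit. As medians over wells in place of sums, Mfap5 was 1435 CPM in Thy1 or Enpep wells and 8.95 CPM in neither wells, against 3902 and 894 CPM summed, and Cd200 was 0 in both, against 51.7 and 146 CPM summed. Of 31 named results under 443 alternatives, 28 never changed direction and 5 values did, all in Enpep wells: in wells with Mfap5 or Cd34, Rgs5 was -3.31, Ecm1 -1.16 and Hspb1 -0.47, and without the well with most counts of the gene, Rgs5 was -0.66 and Ecm1 -1.84. The cause was not tested.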
